A study of Homo sapiens with 4 samples.

Results

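TXNIP, ARRDC4, ARRDC2, ARRDC3 and ARRDC1, which encode alpha-arrestins, and MLXIP and MLX, which encode the transcription factor pair MondoA and MLX, were followed in HGC27, a human gastric cancer cell line. These 7 genes were taken by symbol from the 14431 genes of the deposited expression table, and all 7 were found there. The set was chosen by the difference of TXNIP between the groups, the lowest of all genes on the log2(CPM + 1) scale, and the other 6 genes as its relatives and regulators. CPM, the unit of the deposited table, scales the reads of a gene to the size of its library. The differences between the groups are therefore given as a description of these 7 genes, without a test.

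RNA-seq was performed on 2 control libraries, labelled WT, and 2 siAARS1 libraries, from cells given a small interfering RNA (siRNA) to AARS1, the cytosolic alanyl-tRNA synthetase. All 4 libraries came from cells kept in DMEM lacking glucose, with serum and with 25 mM lactate added, for 24 h per the labels. The text of the study gives another duration, so the time under lactate is uncertain, and no library without lactate was analysed here. The sources used here give neither the siRNA sequence nor whether the replicates were separate transfections, so the p-values below measure only the spread between these libraries.

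TXNIP encodes thioredoxin-interacting protein, which binds thioredoxin and lowers glucose uptake by driving glucose transporters off the cell surface. Its transcript is short-lived and is one of the most glucose-responsive in mammalian cells. When glucose-6-phosphate accumulates, MondoA (MLXIP) paired with MLX gathers in the nucleus and binds carbohydrate response elements, which are paired E-box-like sites in the promoters of TXNIP and of its close paralog ARRDC4. The other alpha-arrestins share the arrestin fold and act mainly as adaptors that bring ubiquitin ligases of the NEDD4 family to membrane proteins.

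The promoters of TXNIP, ARRDC4 and MLX are shown because each held an E-box or a pair of E-box-like sites upstream of its start site. Sequences are from RefSeq on GRCh38.p14, written 5′ to 3′ on the strand of the gene, and all 7 genes had at least 1 entry. Capitals mark 3 motifs searched on both strands, CACGTG (an E-box, which reads the same on either strand), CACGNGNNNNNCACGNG (a pair of E-box-like sites) and CCAAT, the box bound by NF-Y, which reads ATTGG on the other strand. Any CACGNG site that is CACGTG is also an E-box of the first kind. Positions count back from the start site, with -1 the last base before it.
TXNIP: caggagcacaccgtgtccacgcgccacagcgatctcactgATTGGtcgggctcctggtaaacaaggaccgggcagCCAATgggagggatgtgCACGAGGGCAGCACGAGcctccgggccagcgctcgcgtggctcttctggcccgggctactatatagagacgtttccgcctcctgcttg
ARRDC4: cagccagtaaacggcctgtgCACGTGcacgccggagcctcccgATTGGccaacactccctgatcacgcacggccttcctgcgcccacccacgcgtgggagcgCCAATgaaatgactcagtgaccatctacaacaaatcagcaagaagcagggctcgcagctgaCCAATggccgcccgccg
MLX: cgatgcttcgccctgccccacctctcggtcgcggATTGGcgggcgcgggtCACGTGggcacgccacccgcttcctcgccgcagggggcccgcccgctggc

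The TXNIP stretch is chr1:145996580-145996759 on the minus strand, the ARRDC4 stretch chr15:97960473-97960652 on the plus strand, and the MLX stretch chr17:42567000-42567099 on the plus strand. In TXNIP the paired motif began at position -88, with the letters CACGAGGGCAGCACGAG, and CCAAT boxes began at -105 and, on the other strand, at -140. The paired motif was present in 20 of 35116 RefSeq promoters of the same length (0.0570%). ARRDC4 held 1 CACGTG at -210 and CCAAT boxes at -128, at -67 and, on the other strand, at -187. The paired motif as written here was not found in the ARRDC4 window. MLX held 1 CACGTG at -50 and a CCAAT box on the other strand at -66. CACGTG was present in 7.26% of promoters and CCAAT in 34.6%. Neither CACGTG nor the paired motif was found in the windows of ARRDC1, ARRDC2, ARRDC3 or MLXIP. Each of these 4 genes had a window with a CCAAT box. A match of letters is not evidence of a bound site, and these windows cover only 250 bases before and 50 after a start site.

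Depth over the listed genes was 30653210 to 33522573 reads a library, so that 1 read equalled 0.0293 to 0.0324 CPM. AARS1 (listed as AARS), the siRNA target, went from 428 and 417 CPM to 292 and 298 CPM, or 69.7% of control. Its log2 difference was -0.52, and -0.28 after the correction for GC content and length given below. Markers of the labelled cell type were sparse. Of 5 epithelial markers only KRT8 and CDH1 were listed, with a sum of 27.0 to 27.3 CPM in control against 6.14 to 7.29 CPM in siAARS1 libraries, while KRT18, KRT19 and EPCAM were not among the listed genes. None of 6 gastric mucosa markers was listed, nor were PTPRC or PECAM1. The mesenchymal marker VIM had 4600 to 5131 CPM. Of the fibroblast markers, COL1A1 went from 2320 and 2399 to 1644 and 1541 CPM. DCN went from 239 and 250 to 258 and 270 CPM. The log2 differences of COL1A1 and DCN were -0.57 and 0.11, but both were negative after that correction (-0.23 and -1.23). The part of these shifts in the results below was not tested. In bulk RNA, fewer cells of a type and less RNA per cell cannot be told apart.

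TXNIP had about the same level in both control libraries, and its level in the siAARS1 libraries was 13.5% of that. It had 73.9 and 74.5 CPM in control against 9.62 and 10.4 CPM in siAARS1 libraries. These values came from 2521 and 2363 reads in control and from 297 and 345 reads in siAARS1 libraries. The groups lay far apart, and the libraries within a group differed by less than 1 CPM. The means were 74.2 ± 0.386 and 10.00 ± 0.538 CPM (SD, n = 2), a 7.42-fold lower mean. On the log2(CPM + 1) scale the difference was -2.77 (SE 0.0673). Of 14199 genes tested, HSPA6 came next in the order of falls on this scale, at -2.42. The order depends on the scale for genes of low level. ELF3, at 0.55 and 0.81 CPM in siAARS1 libraries, was at -2.25 here. It was at -3.30 in edgeR and -3.29 in DESeq2, below TXNIP at -2.85 and -2.84. The TXNIP locus is chromosome 1, 145992435 to 145996600, on the minus strand of GRCh38 (GENCODE v29), and no annotated gene overlapped it there.

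**Figure D1:**
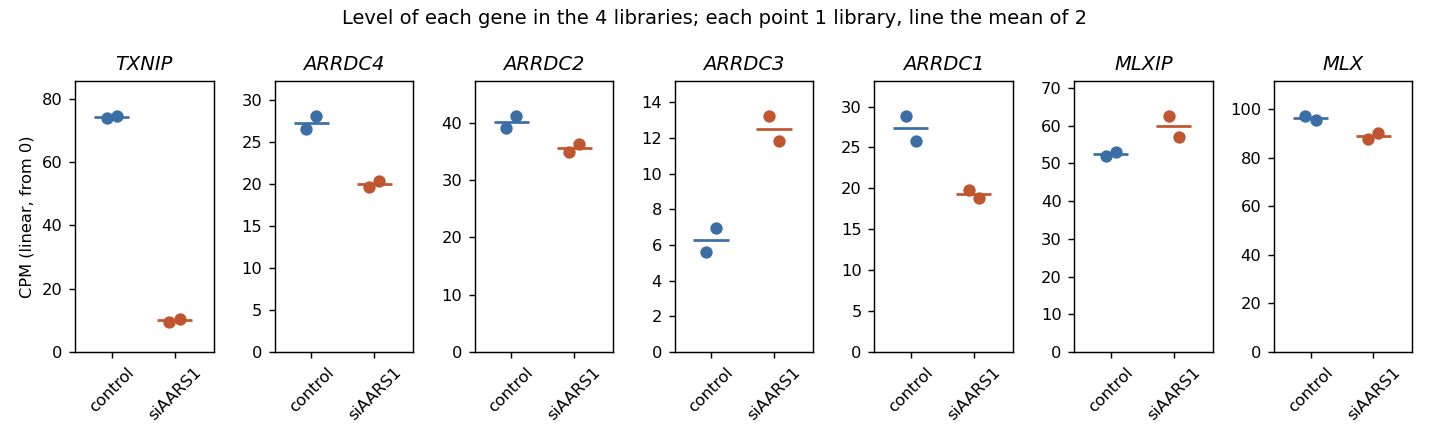
CPM of each of the 7 genes in the 2 control (blue) and 2 siAARS1 (orange) libraries, each panel with its own linear axis from 0; points are libraries and lines are group means. In every panel the 2 groups do not overlap, which also held for 85.1% of all genes tested. TXNIP lay between 9.62 and 10.4 CPM in siAARS1 against 73.9 and 74.5 CPM in control.

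ARRDC4, the alpha-arrestin closest to TXNIP in its known response to glucose, was also lower, but by far less. It had 26.5 and 28.02 CPM in control against 19.6 and 20.4 CPM in siAARS1 libraries. Both siAARS1 values lay below both control values, as they did for 46.6% of all genes tested. The siAARS1 mean was 73.3% of control (27.3 ± 1.05 and 19.99 ± 0.524 CPM), a log2 difference of -0.43 (SE 0.0716). On this log2(CPM + 1) scale, 16.1% of all genes tested had a lower difference than ARRDC4, whereas none was lower than TXNIP. At or below -1 lay 1.63% of all genes tested, TXNIP among them and none of the other 6. ARRDC4 lies on chromosome 15, 97960698 to 97973838, on the plus strand, and no annotated gene overlapped it.

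The remaining 3 alpha-arrestins of the set did not move as 1 group. ARRDC1, which helps bud vesicles from the plasma membrane, had 28.8 and 25.8 CPM in control against 19.8 and 18.9 CPM in siAARS1 libraries, a log2 difference of -0.48 (SE 0.0752). ARRDC2, a little studied member, had 39.0 and 41.1 CPM in control against 34.9 and 36.2 CPM in siAARS1 libraries, a log2 difference of -0.17 (SE 0.0597). ARRDC3, an adaptor that sends beta-adrenergic receptors and integrin beta 4 for degradation, went the other way. Its level was 5.63 and 6.97 CPM in control against 13.2 and 11.8 CPM in siAARS1 libraries, a 1.99-fold higher mean and a log2 difference of 0.89 (SE 0.112). It was the lowest of the 7 genes per kilobase of transcript, with 192 and 221 reads in control. ARRDC1 overlaps ARRDC1-AS1 on the other strand by 29 bases, which was itself at 19.0 CPM in control against 15.4 CPM in siAARS1 libraries, and ARRDC1 shares its span with an unlisted transcript on the same strand. ARRDC3 overlaps ARRDC3-AS1, which was not listed, by 3011 bases. The use of strand in the counting is not given in the sources used here, so reads of these loci could be shared.

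Both genes of the glucose-sensing pair had small differences. MLXIP, which encodes MondoA, had 51.9 and 53.0 CPM in control against 62.5 and 57.1 CPM in siAARS1 libraries, a log2 difference of 0.18 (SE 0.0545). Without siAARS1 replicate 1, the highest of the 4 libraries, it was 0.12. MLX, the partner that MondoA needs to bind DNA, had 97.0 and 95.7 CPM in control against 87.7 and 90.1 CPM in siAARS1 libraries, a log2 difference of -0.11 (SE 0.0443). The siAARS1 means were 114% and 92.3% of control. Thus, as deposited, the transcript of the sensor was slightly higher and that of its partner slightly lower, in the same libraries where TXNIP fell. The sign for MLX depends on the processing, since it was at 0.10 after the GC content and length correction given below. MLX overlaps PSMC3IP on the other strand by 925 bases, and PSMC3IP was at 28.8 CPM in control against 31.6 CPM in siAARS1 libraries.

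In all 7 genes the groups did not overlap, with 5 lower and 2 higher in siAARS1 libraries. The same held for 85.1% of all genes tested, with 46.6% lower and 38.5% higher. A limma adjusted p-value under 0.05 was given to 70.7% of all genes tested, 38.0% lower and 32.6% higher. Since the genes were chosen with this contrast known, nothing is read from their count.

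Levels of different genes were compared per kilobase of the longest annotated transcript. In control libraries the order was MLX (37.3 ± 0.362 CPM per kb, SD, n = 2), TXNIP (25.4 ± 0.132), ARRDC2 (10.7 ± 0.384), ARRDC1 (8.58 ± 0.656), ARRDC4 (6.70 ± 0.257), MLXIP (6.23 ± 0.0930) and ARRDC3 (1.504 ± 0.225). In siAARS1 libraries it was MLX (34.4 ± 0.648), ARRDC2 (9.48 ± 0.253), MLXIP (7.10 ± 0.448), ARRDC1 (6.07 ± 0.212), ARRDC4 (4.91 ± 0.129), TXNIP (3.42 ± 0.184) and ARRDC3 (2.99 ± 0.235). TXNIP thus moved from the second place to the sixth. Neighbours in these orders had ranges that did not meet in either group, although with 2 libraries a group the spread is poorly known. In the siAARS1 libraries TXNIP and ARRDC3 were the closest pair on the linear scale, with the lower TXNIP value (3.29 CPM per kb) just above the higher ARRDC3 value (3.15 CPM per kb).

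Summed per kilobase, the 5 alpha-arrestins of the set were lower in the siAARS1 libraries, mostly by the loss of TXNIP. ARRDC5, a further gene of this family, was not among the listed genes and is not in the sum. The sum was 52.6 and 53.1 CPM per kb in control and 26.8 and 27.0 CPM per kb in siAARS1 libraries. Without TXNIP it was 27.3 and 27.6 CPM per kb in control and 23.5 and 23.4 CPM per kb in siAARS1 libraries. TXNIP accounted for 48.0% of the sum in each control library and for 12.3% and 13.2% in the siAARS1 libraries. ARRDC2 had the largest share in the siAARS1 libraries, at 34.7% and 35.8%, against 19.8% and 20.6% in control. The ratio of TXNIP to ARRDC4 per kilobase was 3.88 and 3.70 in control and 0.682 and 0.709 in siAARS1 libraries, so the 2 paralogs changed places.

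**Figure D2:**
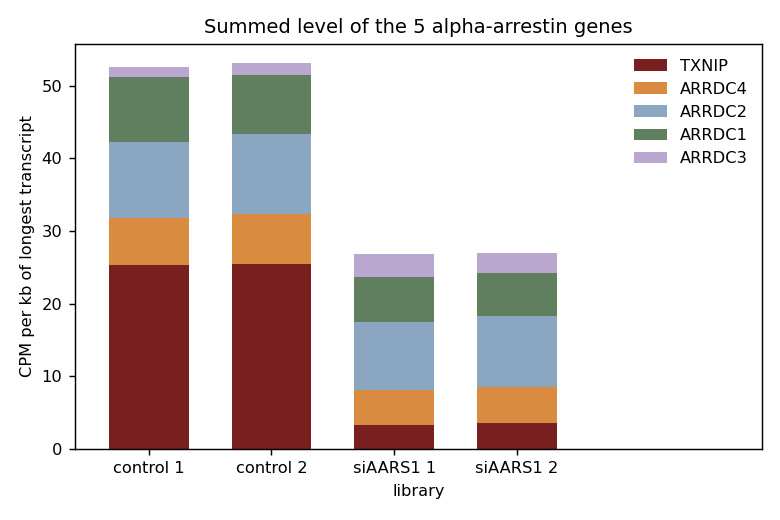
Stacked CPM per kilobase of longest transcript for the 5 alpha-arrestin genes, one bar per library, from 0. The bars reach 52.6 and 53.1 in control and 26.8 and 27.0 in siAARS1, and the lowest segment, TXNIP, shrinks from 25.3 and 25.5 to 3.29 and 3.55.

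The differences were read beside GC content, because the fold changes of all genes followed it (rank correlation across 13941 genes -0.65, a description, since all points share the same 4 libraries). TXNIP and ARRDC4 have transcripts of like GC content (43.9% and 43.4%) and lie in the second of 5 equal bins of genes by GC content (41.1% to 46.1%), whose median log2 fold change was 0.22. Both genes went against that median. ARRDC3 (37.6% GC) lies in the lowest bin, with a median of 0.75, and ARRDC1 and ARRDC2 (62.8% and 60.2%) in the highest, with a median of -0.30. These 3 genes had the sign of their bin. MLX (51.8%) was at -0.11 where the median was -0.11, and MLXIP (57.9%) was at 0.18 where the median was -0.23.

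**Figure D3:**
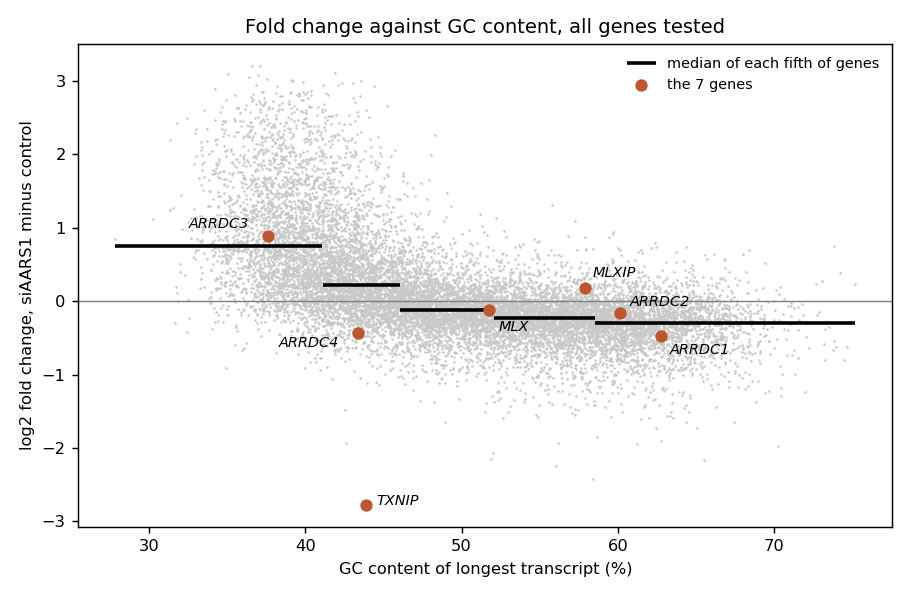
Log2 fold change (siAARS1 minus control, on log2(CPM + 1)) against GC content of the longest transcript for 13941 genes (grey), with the median of each of 5 bins of genes by GC content (black bars) and the 7 genes (orange). TXNIP (-2.77) and ARRDC4 (-0.43) lie below the median of their bin (0.22), while ARRDC3 (0.89) lies near that of its own (0.75).

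The values were recomputed after the trend with GC content and length was taken out of each library. TXNIP moved from -2.77 to -2.97 and ARRDC4 from -0.43 to -0.78. ARRDC1 moved from -0.48 to -0.11 and ARRDC3 from 0.89 to 0.01. ARRDC2 and MLX changed sign, from -0.17 to 0.17 and from -0.11 to 0.10, and MLXIP moved from 0.18 to 0.49. Over all 13941 genes this fit called 66.0%, 33.3% lower and 32.6% higher. The direction was thus kept for TXNIP, ARRDC4, ARRDC1, ARRDC3 and MLXIP, although the value of ARRDC3 was close to 0. The correction removes any true change that follows GC content or length as well.

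**Figure D4:**
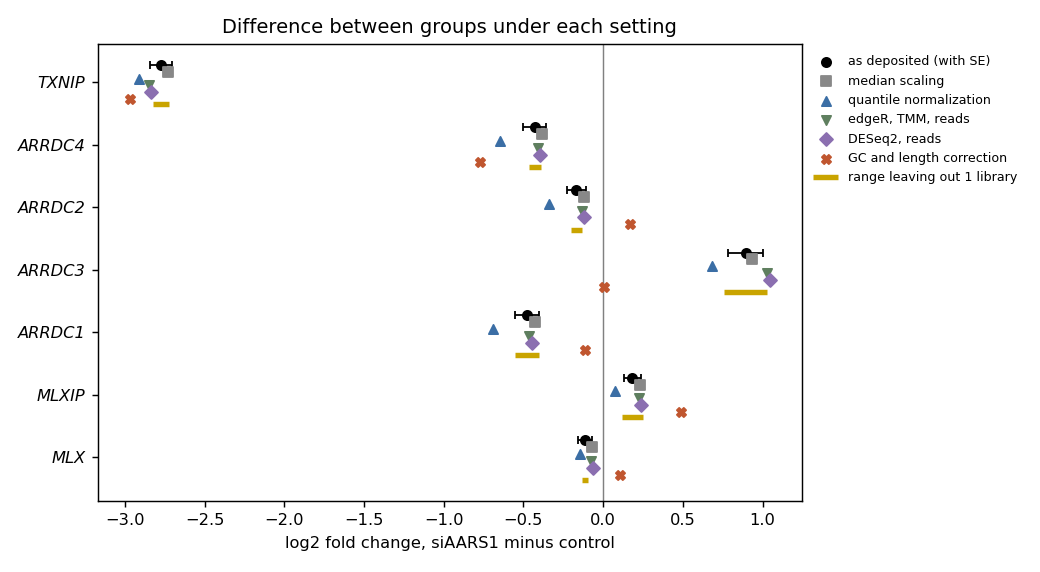
Log2 fold change (siAARS1 minus control) of the 7 genes under 6 ways of processing, with the SE for the values as deposited (black) and the range over fits that each left out 1 library (yellow bars). TXNIP stays between -2.97 and -2.72, while the GC content and length correction (orange crosses) puts ARRDC2 and MLX above 0 and ARRDC3 at 0.01.

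The gene with the pattern nearest to TXNIP over the 4 libraries was HSPA6, a stress-induced member of the HSP70 family (distance 0.36 on the centred log2(CPM + 1) scale). ELF3, an epithelial ETS factor (0.55), and C11orf53 (0.67) followed. HSPA6 had 22.3 and 22.6 CPM in control against 3.27 and 3.52 CPM in siAARS1 libraries, and it has near-identical copies, so its reads may be split. The 3 genes nearest to ARRDC4 were HGSNAT, DAP and GALNT10 (distances 0.012 to 0.016, log2 fold changes -0.44 to -0.43, and -0.33 to -0.16 after the correction). Such nearness rests on a single contrast and 4 libraries.

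The other genes whose RefSeq promoter held the paired motif shown for TXNIP had differences in both directions. Since TXNIP was chosen as the lowest gene, their falls could only be smaller, and no conclusion about the motif is drawn. Of 20 genes with the motif, 15 were tested. Of the 14 other than TXNIP, 8 were higher, 4 lower and 2 not called by limma at an adjusted p-value under 0.05, with a median log2 fold change of 0.16 against -0.05 over all genes tested, of which 32.6% were higher and 38.0% lower. After the GC content and length correction 6 were higher and 4 lower, beside 32.6% and 33.3% of all genes in that fit. No gene of the 14 was called lower in both fits. Their lowest was MYL5, a myosin light chain (-0.56, limma adjusted p = 9.83e-05), and their highest PPP2R3C, a phosphatase subunit (0.74, limma adjusted p = 7.71e-07). GFPT1, the enzyme that opens the hexosamine pathway, was among them and rose from 64.5 ± 0.815 to 85.4 ± 2.77 CPM (0.40), which was -1.01 and in the opposite direction after the GC content and length correction. MYL5 no longer passed after that correction, at -0.21, and PPP2R3C did, at 0.62. These 3 genes were named after their values were seen.

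Among genes that bring in glucose or make and use glucose-6-phosphate, the metabolite that MondoA senses, 11 of 16 tested were lower and 3 higher, with a median log2 fold change of -0.42 (limma, adjusted over all genes, where 38.0% were lower). After the GC content and length correction 9 were lower and 3 higher (33.3% and 32.6% of all genes in that fit), with a median of -0.13. The 3 higher genes were not the same in both fits. GFPT1 was among them before the correction and was called lower after it (-1.01). GPI, not called before, was higher after it (0.14). GFPT1 and GPI were named after their values were seen. SLC2A12, a glucose transporter, was lowest, from 1.78 ± 0.0262 to 0.698 ± 0.162 CPM (log2 fold change -0.71). At so low a level the pseudocount weighs on the value, which was -1.25 with a pseudocount of 0.1, -1.30 in edgeR, -1.29 in DESeq2 and -1.12 after the correction. HK1, a hexokinase that makes glucose-6-phosphate, fell from 65.5 ± 2.49 to 40.6 ± 2.58 CPM (-0.68, SE 0.0568, limma adjusted p = 7e-10). HK2, the other major hexokinase of cancer cells, rose from 89.0 ± 0.409 to 138 ± 0.687 CPM (0.63, limma adjusted p = 1.39e-11). SLC2A1, the transporter GLUT1 that TXNIP removes from the surface, rose from 63.0 ± 2.52 to 80.5 ± 0.445 CPM (0.35, SE 0.0486, limma adjusted p = 1.67e-06). HK1 stayed lower, and HK2 and SLC2A1 higher, under every setting tried, with 0.80 for HK2 and 0.61 for SLC2A1 after the correction.

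Other genes known to respond to glucose through MondoA or its liver relative ChREBP were mixed. Of 11 tested, 6 were lower and 3 higher, beside 38.0% and 32.6% of all genes, with a median of -0.14. After the correction 2 were lower and 4 higher, beside 33.3% and 32.6% of all genes. KLF11, a Krüppel-like repressor, fell from 25.1 ± 0.957 to 14.8 ± 0.750 CPM (-0.72, and -0.71 after the correction). ELOVL6, a fatty acid elongase, rose from 14.1 ± 1.45 to 24.6 ± 1.21 CPM (0.76), but was at -0.12 and not called after the correction.

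Of 9 tested genes that encode MAX or partners of MLX or MAX, 4 were lower and 3 higher (over all genes, 38.0% and 32.6%). Their median was -0.10, and 0.06 after the correction. MLXIPL, which encodes ChREBP itself, was low in both groups, with 3.25 and 2.52 CPM in control against 2.04 and 1.59 CPM in siAARS1 libraries. Its difference of -0.46 (limma adjusted p = 0.0112) was no longer called without control replicate 1 (-0.33), without siAARS1 replicate 2 (-0.35), in DESeq2 or after the correction (-0.20). MAX, the common partner of MYC and MXD proteins, had 66.8 ± 0.938 and 64.7 ± 0.575 CPM and was not called (-0.04, limma adjusted p = 0.424). Its sign turned under median scaling and DESeq2, and it was called lower under quantile normalization (-0.14, limma adjusted p = 0.0179) and higher after the correction (0.15, limma adjusted p = 0.00338). MGA, a large repressor that binds MAX, rose from 12.4 ± 0.977 to 76.5 ± 1.14 CPM (2.53, and 1.40 after the correction), and MXD1, a MAX-binding repressor, was at 0.61, which was 0.06 and not called after the correction.

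TXNIP protein acts through partners, and of 7 tested 2 were lower and 1 higher, where 38.0% and 32.6% of all genes were. TXN, the thioredoxin that TXNIP binds, fell from 404 ± 12.7 to 340 ± 12.6 CPM (-0.25, SE 0.0380, limma adjusted p = 5.42e-06) and stayed lower under every setting tried. TXNRD1, the reductase that recharges thioredoxin, had 251 ± 1.51 and 262 ± 2.85 CPM and was not called (0.06, limma adjusted p = 0.123). It was called and higher under median scaling, edgeR and DESeq2, and called and lower after the correction (-0.13). DDIT4, a stress-induced inhibitor of mTORC1 that forms a complex with TXNIP, fell from 380 ± 13.7 to 267 ± 1.53 CPM (-0.51, and -0.17 after the correction). HIF1A, the hypoxia factor, rose from 23.9 ± 0.357 to 130 ± 9.74 CPM (2.39, and 1.39 after the correction), and NLRP3 was not listed. After the correction all 7 were called, 3 lower and 4 higher, where 66.0% of all genes were called in that fit.

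Ligases of the NEDD4 family, which alpha-arrestins recruit, included ITCH, the ligase reported to mark TXNIP for degradation. Of 7 tested, 4 were higher and 3 lower, beside 32.6% and 38.0% of all genes, with a median of 0.24 that was 0.02 after the correction. ITCH rose from 28.7 ± 0.582 to 69.1 ± 0.964 CPM (1.24, SE 0.0551, limma adjusted p = 1.21e-14), but was at 0.09 and not called after the correction. NEDD4 rose from 5.01 ± 0.578 to 21.8 ± 0.0134 CPM (1.93, and 0.64 after the correction), and WWP1 was at 1.51 and 0.58. NEDD4L fell from 46.3 ± 0.694 to 39.3 ± 0.569 CPM (-0.23, and -0.92 after the correction).

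Subunits of AMPK, the energy-sensing kinase that phosphorylates TXNIP and so hastens its loss, were called in 9 of 9 cases together with LKB1 and its partners, 5 lower and 4 higher, where 70.7% of all genes were called. PRKAA2 and PRKAA1, the catalytic subunits, were at 1.40 and 1.23, but at -0.08 and 0.00 and not called after the correction, which left 4 of 9 called, against 66.0% of all genes in that fit. Of the other arrestin-fold genes, 5 of 6 were lower, beside 38.0% of all genes, with a median of -0.23, and none of these 5 was called after the correction. Among them ARRB1, a beta-arrestin, was at -0.39 and at -0.12 after the correction. VPS26A, an arrestin-like subunit of retromer, rose from 15.8 ± 0.481 to 47.7 ± 3.82 CPM (1.54, and 1.00 after the correction). VPS26B, another such subunit, fell from 61.7 ± 0.421 to 48.2 ± 0.598 CPM (-0.35, and -0.07 after the correction), and was named after its values were seen.

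Factors reported at the TXNIP promoter did not show a common direction. Of 7 tested, 2 were higher and 2 lower, beside 32.6% and 38.0% of all genes, with a median of 0.04. After the GC content and length correction 3 were higher and 1 lower, beside 32.6% and 33.3% of all genes, with a median of 0.13. The genes called were not all the same in both fits. NFYA and NFYB, subunits of the CCAAT-binding factor NF-Y, were at 0.52 and 0.81, and at 0.38 and -0.08 after the correction, the latter not called. Genes that respond to glucocorticoids, as TXNIP also can, were lower in 5 of 7 cases and higher in 1, beside 38.0% and 32.6% of all genes, with a median of -0.29. After the correction 5 were lower and 0 higher, with a median of -0.44 (limma, where 33.3% of all genes were lower). FKBP5, a chaperone of the receptor and the gene that was higher, turned from 0.51 to -0.44 and was named after its values were seen. TSC22D3, the glucocorticoid-induced leucine zipper, fell from 35.1 ± 0.649 to 20.6 ± 0.914 CPM (-0.74, SE 0.0679, limma adjusted p = 2.83e-09), and SGK1, a kinase, was at -0.59 and at -1.40 after the correction. Both stayed lower and called under every setting tried. NR3C1, which encodes the glucocorticoid receptor, and PPARG were not listed.

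**Figure D5:**
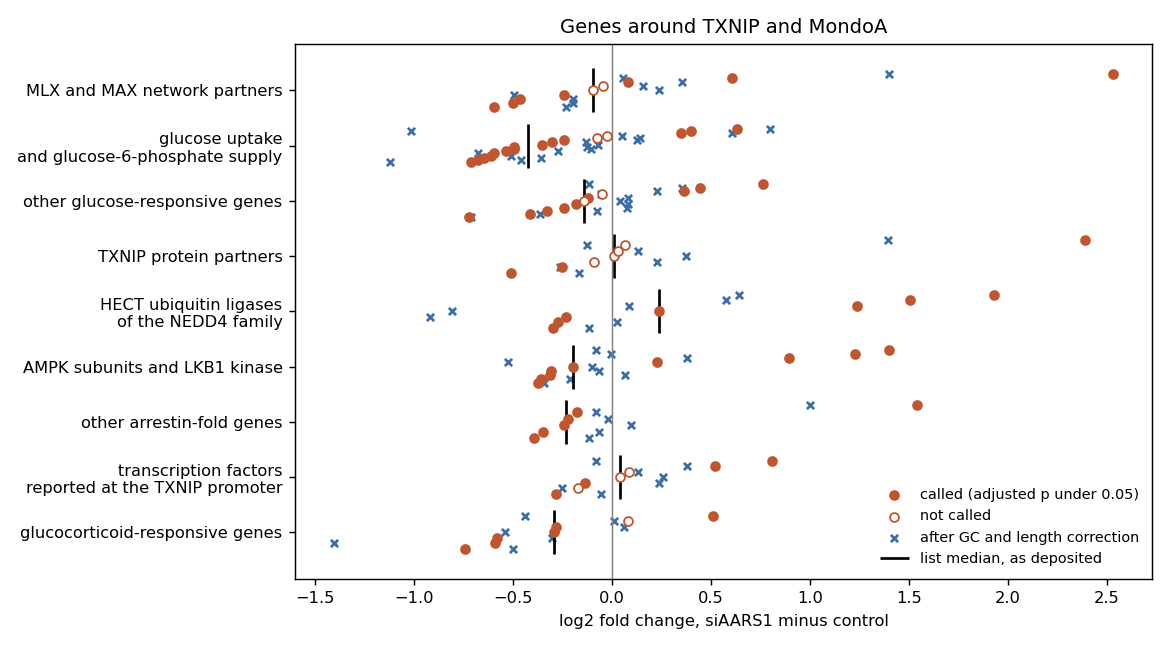
Log2 fold change (siAARS1 minus control) of each tested gene in 9 lists around TXNIP and MondoA, filled where the limma adjusted p-value was under 0.05, with blue crosses for the same genes once corrected for GC content and length, and a black bar for the list median. The glucose uptake and glucose-6-phosphate list has the lowest median before the correction (-0.42) and the glucocorticoid-responsive list after it (-0.44), and many of the highest values, such as those of the ubiquitin ligases and AMPK subunits, move toward 0 after the correction.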

How the data were processed

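The 7 genes and the 9 lists were chosen with earlier results of these data known. The authors deposited 1 table of CPM values for 14431 genes, each above 1 CPM in at least 1 library. The submitters' processing notes name RSEM 1.3.3 and hg38; the annotation, strand setting and normalization are not given in the sources used here. CPM does not correct for transcript length, and 100% of the values were whole multiples of 1 read, within a rounding of 0.0005 CPM, from which reads were recovered (edgeR then called 9806 genes).

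Groups were compared with limma 3.58.1 (R 4.3.3, trended eBayes) on log2(CPM + 1), for the 14199 genes whose mean reached 1 CPM in either group, with Benjamini-Hochberg adjustment over all of them and a threshold of 0.05. Lists were described by counts of calls. Named list genes were the 2 called genes with the largest change, plus TXN, TXNRD1, MLXIPL, MAX, SLC2A1, HK2, ITCH and NEDD4L; nearest genes were taken by Euclidean distance. The study's own test of single genes is not given in the sources used here. Transcript length and GC content were those of the longest transcript in GENCODE v29 for 98.1% of genes, 126 of them, TXNIP included, matched by Entrez number because the table's identifier was not in that release. The correction subtracted from each library a smooth trend over GC content and length (mgcv 1.9.3). Alternatives were another pseudocount, no filter, median and quantile scaling, a replicate block, leaving out each library, edgeR 4.0.16 and DESeq2 1.42.0 on recovered reads, and a threshold of 0.01. Scripts were tested on simulated data. Replicates differed by more than sampling noise (chi-square per gene 3.62 in control and 3.60 in siAARS1 libraries), so all 4 were kept as separate samples.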

Additional observations from a re-analysis of the deposited data

How the results depend on the processing

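limma called 10032 genes, and the other settings gave counts within 1.5 times of it, from 8355 in DESeq2 to 10760 under quantile normalization. On recovered reads edgeR called 9806 genes. Higher genes made up 46.2% of the calls, 37.0% under quantile normalization, 51.3% under median scaling, 50.3% in edgeR and 53.8% in DESeq2. Leaving out 1 library gave 8905 to 9326 calls and kept the sign of all 7 genes, with TXNIP between -2.82 and -2.72. The calls in each list stayed within 1.5 times when 1 library was left out. The replicate numbers are not stated to mark pairs, and deviations of same-numbered libraries correlated at 0.12. With the replicate block 10389 genes were called, and no named list gene or list count changed its call beyond 1.5 times. No block was combined with the correction in the plan, so that fit was added after the data were seen. In this balanced design a block cannot change the differences between groups, so those of the 7 genes are the same by construction. For the lists that moved, the added fit gave the same counts as the correction alone.

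Under the GC content and length correction, with or without the block, the log2 fold changes were -2.97 for TXNIP, -0.78 for ARRDC4, 0.01 for ARRDC3 (0.0074), -0.11 for ARRDC1 and 0.49 for MLXIP, while ARRDC2 (0.17) and MLX (0.10) reversed. Under quantile normalization they were -2.91 for TXNIP, -0.64 for ARRDC4, -0.34 for ARRDC2, 0.68 for ARRDC3, -0.69 for ARRDC1, 0.071 for MLXIP and -0.15 for MLX. Median scaling gave -0.38 for ARRDC4, -0.12 for ARRDC2 and -0.067 for MLX. TXNIP was at -2.88 with a pseudocount of 0.1, at -2.85 in edgeR and at -2.84 in DESeq2. MLX was at -0.078 in edgeR and -0.064 in DESeq2, and ARRDC2 at -0.12 in DESeq2. Among the lists, the correction called 7 TXNIP partners (5 under quantile normalization), 4 AMPK and LKB1 genes and 1 other arrestin-fold gene. At a threshold of 0.01, 4 MLX and MAX partners were called. The cause of these shifts was not tested. The smallest member, ARRDC3, rested on 192 to 408 reads a library.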
